A study of Mus musculus with 20 samples.

Results

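The genes described here encode the constitutive proteasome, its activators and its assembly chaperones, taken as every gene of the count table whose symbol begins with Psm, goes on with a letter from a to g and ends in a number, leaving out the immunoproteasome catalytic genes Psmb8, Psmb9 and Psmb10. The rule gave 44 of the 22660 genes in the table. They are 8 alpha and 7 beta subunits of the 20S core, 9 base and 8 lid subunits of the 19S regulatory particle, 3 base chaperones, 4 core chaperones, 4 activators and 1 inhibitor. They were measured by RNA-seq in plantaris muscle of 20 old mice (labelled 2 years), with 5 different animals in each of 4 groups, sham and MOV surgery each with vehicle and with D + Q. MOV is mechanical overload of the plantaris by surgical removal of part of the gastrocnemius and soleus, and in sham surgery the skin was opened and these muscles were kept. D + Q combines the kinase inhibitor dasatinib (5 mg/kg) and the flavonoid quercetin (50 mg/kg), given by gavage on days 7 and 10 with collection on day 14. The deposited description of the design, however, places the second gavage of sham mice on day 14. No group carried a transgene or a gene deletion. The comparisons ask whether proteasome transcripts differed after overload with and without the senolytic treatment, and whether D + Q altered them within each surgery.

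The 26S proteasome degrades proteins that carry ubiquitin chains. Its barrel-shaped 20S core is made of outer rings of alpha subunits, which gate the entrance, around inner rings of beta subunits, of which Psmb5, Psmb6 and Psmb7 carry the protease sites. The 19S particle caps the core, its base unfolding substrates with ATPases (Psmc genes) and its lid removing ubiquitin. The activators (Psme genes) are alternative caps that open the core without ATP, and the chaperones guide assembly and leave the finished complex. In skeletal muscle the proteasome is known for breaking down myofibrillar proteins during atrophy and for protein turnover during remodelling. NFE2L1, a transcription factor that raises proteasome genes together when proteasome activity is low, binds antioxidant response elements in their promoters.

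The core of that element, TGACNNNGC on either strand, was searched in the promoters from 250 bases before to 50 bases after the start of each gene (RefSeq, GRCm38.p6). A promoter was available for 36 of the 44 members, and 6 of these members (16.7%) held the element. Of all 27025 genes with promoters of the same length 14.0% did, so the share among the members was close to that of all genes. A gene with several promoters was counted where any of them held the element. CCAAT, the letters bound by NF-Y, was in 12 of the 36 (33.3%) and in 41.1% of all genes, counted the same way. The elements that lie within 50 bases of the start were those of the catalytic genes Psmb5 and Psmb6, of the activator Psme4, whose transcript fell most after MOV, and of the chaperone Psmd9. They are shown 5′ to 3′ on the strand of the gene, with the element in capitals, at chr14:54618024-54618052 (minus strand), chr11:70525338-70525366 (plus strand), chr11:30771758-30771786 (plus strand) and chr5:123228149-123228177 (plus strand).
Psmb5: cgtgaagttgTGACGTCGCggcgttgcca
Psmb6: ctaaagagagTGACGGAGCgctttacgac
Psme4: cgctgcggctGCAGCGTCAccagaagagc
Psmd9: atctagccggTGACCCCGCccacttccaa
The element began 47 bases upstream of the start in Psmb5, 9 in Psmb6, 7 in Psme4 and 31 in Psmd9, and in Psme4 it lies on the other strand. These matches describe letters in these windows, and binding was not measured.

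In vehicle sham muscle the members spanned a wide range of levels, given here as CPM (counts scaled by library size and TMM factor) per kilobase of the canonical transcript of each gene. The highest were the catalytic subunit Psmb7 at 172 ± 6.66 (SD, n = 5) and the lid subunit Psmd8 at 135 ± 6.32 (SD, n = 5). Nek6 on the other strand overlaps 46.8% of the exon length of Psmb7. The catalytic subunits Psmb6 and Psmb5 stood at 112 ± 3.45 and 61.7 ± 2.90 (SD, n = 5). By class, the medians were 92.6 for the beta subunits, 60.8 for the base, 55.5 for the lid, 36.8 for the tested alpha subunits, 15.9 for the activators, 7.81 for the core chaperones and 4.97 for the base chaperones. Within a class the spread was large: the 7 beta genes ran from 11.8 for Psmb2 to Psmb7, a 14.6-fold range. The 9 base genes ran from 40.7 for the ATPase Psmc2 to 122 for the ATPase Psmc3, a 2.99-fold range. All 4 core chaperones and all 3 base chaperones lay below every tested core, base and lid gene except Psmb2, which lay below the core chaperone Psmg2 at 12.1. The lowest measured member was Psmf1, which encodes the inhibitor protein PI31, at 3.91 ± 0.31 (SD, n = 5). Psma8, a germ-cell alpha subunit, was at most 0.42 CPM in any of the 20 mice and was not tested, which leaves 43 tested members in every comparison. These levels depend on the transcript chosen for each gene's length, and exons of 16 members overlap a gene that also has counts, mostly on the other strand, so reads of such pairs cannot be told apart where the counting did not use strand.

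**Figure D1:**
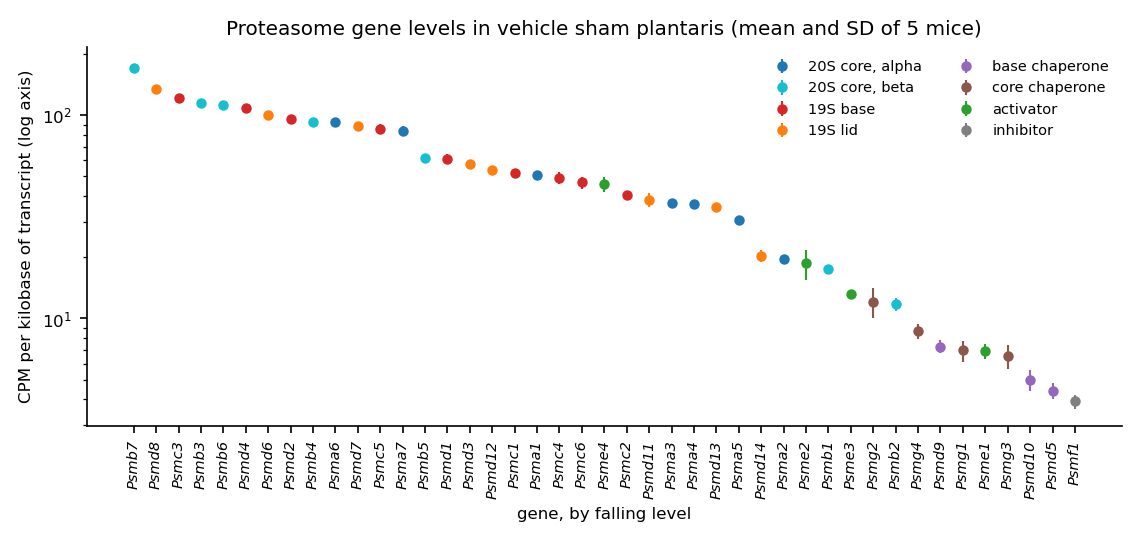
Mean level of the 43 tested members in vehicle sham plantaris in CPM per kilobase (log axis), ordered by level, with the SD of 5 mice as bars and colours for classes. The points fall from 172 for Psmb7 to 3.91 for Psmf1, and the chaperones sit at the low end.

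Facts of the libraries bear on every comparison of MOV with sham. Total counts ran from 17887495 to 26234505 per mouse without a separation of the groups. The 10 most abundant genes took 23.2% to 24.1% of the counts in sham mice and 15.7% to 18.6% in MOV mice. The TMM factors ran from 0.83 to 0.88 in sham and from 1.06 to 1.23 in MOV. The members together took 0.35% to 0.39% of all counts in sham mice and 0.41% to 0.46% in MOV mice, which do not overlap. With library totals alone as the scale, the median log2 fold change of all genes moved from -0.02 to 0.36 (MOV against sham with vehicle) and from 0.02 to 0.39 (with D + Q), and the changes below are relative to the TMM scale unless totals are named. Myofibre markers (8 of 8 detected) summed to 157477 to 182875 CPM in sham and 88529 to 122855 CPM in MOV. The list was not uniform. Of the 8, 4 were lower and 1 higher at an adjusted p under 0.05 by edgeR's quasi-likelihood test with vehicle, and 5 and 1 with D + Q. Myh4 was at 50216 to 67447 CPM in sham and 16384 to 24968 CPM in MOV. Myh2 was at 2949 to 5961 CPM in sham and 4526 to 8547 CPM in MOV. Fibroblast markers (5 of 5) summed to 359 to 949 CPM in sham and 4444 to 11048 CPM in MOV, and macrophage markers (7 of 7) to 23.2 to 56.4 CPM and 109 to 321 CPM. The sum over 6 T and B cell markers was at most 5.56 CPM in any mouse, with Cd4 at 0 in the vehicle sham mice. The part of these shifts in the differences below was not tested, and in whole muscle fewer cells of a type and less RNA per cell cannot be told apart.

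On the TMM scale a smaller share of the members than of all genes was called after overload. Their changes were small, and more members fell than rose. Between vehicle MOV and vehicle sham, 5 of the 43 members rose (11.6%) and 8 fell (18.6%) at an adjusted p under 0.05 by edgeR's quasi-likelihood test, where 30.7% of all genes tested rose and 29.8% fell. With library totals alone 38 members were called higher and 1, Psme4, lower, where 52.6% of all genes were called higher and 9.95% lower. The median log2 fold change of the members was -0.09 beside -0.02 for all 14601 genes tested, and their median absolute change was 0.13 beside 0.44. Between D + Q MOV and D + Q sham, which share no mouse with the first comparison, 3 members rose (6.98%) and 15 fell (34.9%), where 34.4% of all genes rose and 30.9% fell. With library totals alone 33 were called higher and 1, again Psme4, lower, where 56.3% of all genes were called higher and 11.1% lower. The medians were -0.08 for the members and 0.02 for all 14913 genes, and the median absolute changes 0.14 and 0.45. Below the median of all genes lay 26 of 43 members with vehicle and 30 of 43 with D + Q. These counts were 34 and 37 of 44 with no count filter and 23 and 28 of 43 with a minimum of 50 counts. The genes called lower in both comparisons were Psmb3, Psmb7, Psmc2, Psmd1, Psmd2, Psme3 and Psme4, which are 7 of the 8 with vehicle (87.5%) and 7 of the 15 with D + Q (46.7%). Those called higher in both were Psmd5 and Psme2. The sign was the same in both comparisons for 37 of the 43 members. These overlaps and signs were not counted over all genes, so whether they differ from those of other genes is not known. The count with vehicle was fragile to single mice, with 3 to 10 members lower when 1 mouse was left out. It was 3 to 5 lower without vehicle MOV mouse 1, 3 or 4 or vehicle sham mouse 1, 3 or 5, and 2 to 3 higher without vehicle MOV mouse 5 or vehicle sham mouse 1, 3, 4 or 5. With D + Q the same ranges were 13 to 15 lower and 2 to 4 higher.

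**Figure D2:**
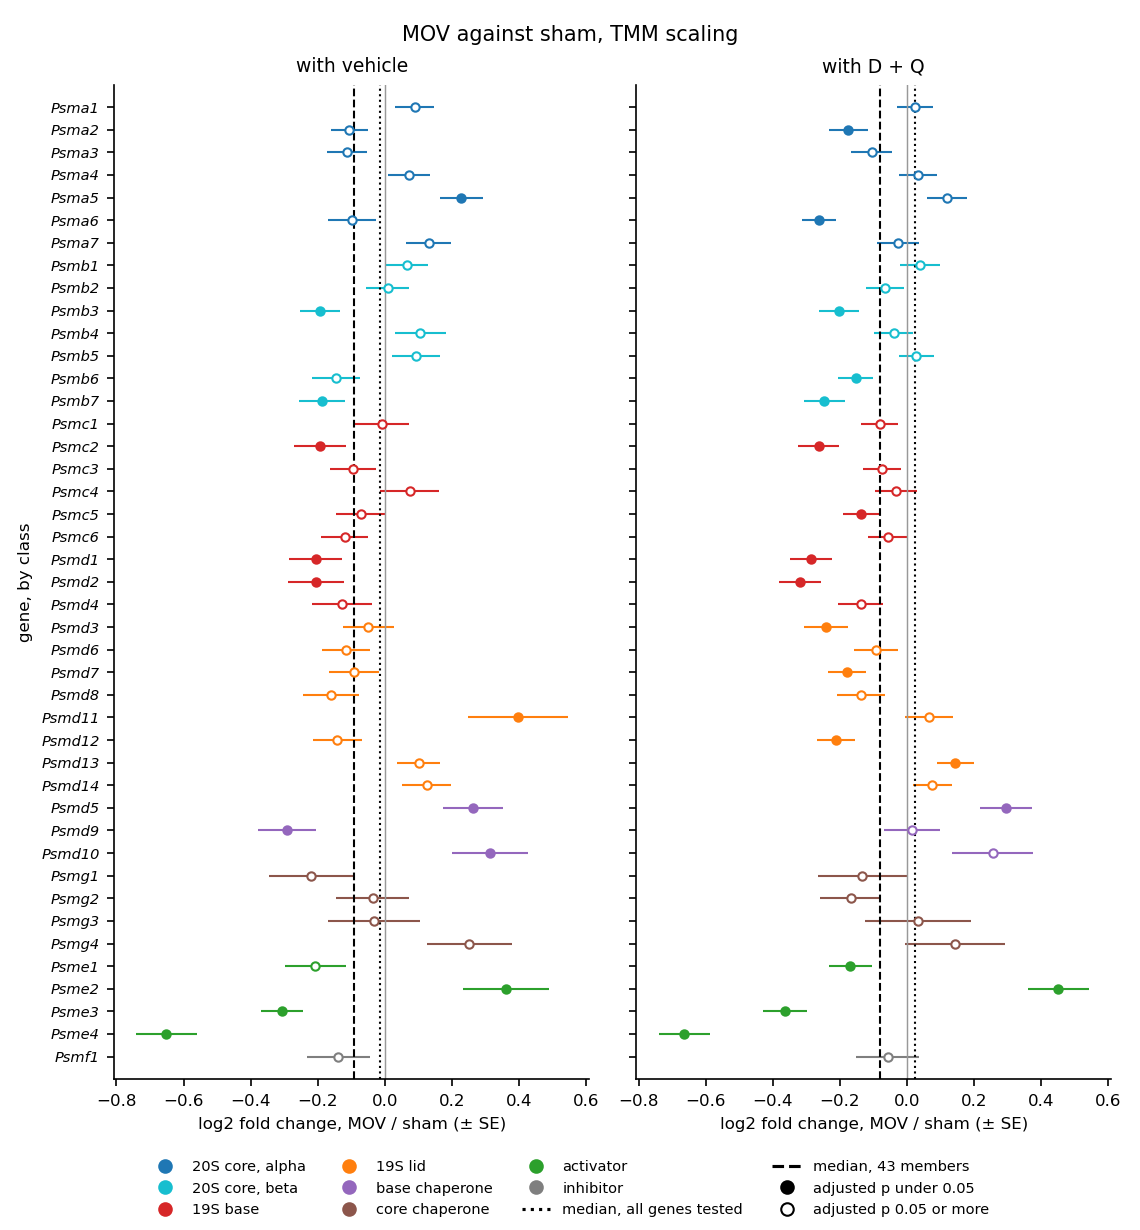
Log2 fold change of MOV against sham for the 43 tested members with vehicle (left) and with D + Q (right), with SE bars from edgeR on 10 mice a panel, filled where the adjusted p was under 0.05, and with vertical lines at the medians of all genes (dotted) and of the members (dashed). Psme4 stands lowest in both panels (-0.65 and -0.66), Psmd11 highest with vehicle (0.40) and Psme2 highest with D + Q (0.45), and on the scale of library totals alone every filled point below 0 except Psme4 lies above 0.

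The median log2 fold change over the 14 tested subunits of the 20S core was 0.04 with vehicle and -0.05 with D + Q. Psmb5, which carries the chymotrypsin-like site, was at 104, 113, 100, 102 and 104 CPM in the vehicle sham mice and at 103, 124, 99.6, 108 and 122 CPM in the vehicle MOV mice. The groups overlapped, with MOV mice 2 and 5 above every sham mouse, and the log2 fold change of 0.09 ± 0.07 (SE) did not pass the test (adjusted p = 0.29; exact permutation p = 0.28). In D + Q mice it was 0.03 ± 0.05 (adjusted p = 0.66), with a 95% interval from -0.08 to 0.14. With library totals alone Psmb5 was called higher in both, at 0.47 with vehicle (adjusted p = 2.5e-05) and 0.39 with D + Q (adjusted p = 2.0e-06). Of all genes 52.6% and 56.3% were called higher on that scale. Psmb6, which carries the caspase-like site, was at 117, 118, 119, 112 and 112 CPM in vehicle sham and at 95.1, 111, 99.0, 97.8 and 118 CPM in vehicle MOV, a log2 fold change of -0.15 ± 0.07 (adjusted p = 0.087). In D + Q mice all 5 MOV values (94.3 to 102 CPM) lay below all 5 sham values (105 to 118 CPM), and Psmb6 fell by 0.15 on the log2 scale (adjusted p = 0.017), turning to 0.21 with library totals alone. The call ended without D + Q MOV mouse 2 (adjusted p = 0.062).

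Psmb7, which carries the trypsin-like site, was at 210, 199, 203, 190 and 194 CPM in vehicle sham and at 161, 192, 167, 163 and 186 CPM in vehicle MOV, where 4 of 5 mice lay below every sham mouse. Its log2 fold change was -0.19 ± 0.07 (adjusted p = 0.029), turning to 0.19 with library totals alone. The call ended without vehicle MOV mouse 1, 3 or 4 or vehicle sham mouse 1 or 3 (adjusted p 0.065 to 0.11). With D + Q the groups did not overlap (142 to 172 CPM in MOV, 180 to 202 CPM in sham), and Psmb7 fell by 0.25 ± 0.06 (adjusted p = 0.0015), or stood at 0.12 with totals alone. The structural beta subunit Psmb3 was at 86.9, 92.6, 90.0, 86.9 and 89.8 CPM in vehicle sham and at 72.4, 80.9, 77.9, 76.7 and 80.6 CPM in vehicle MOV, with no overlap. It fell by 0.19 ± 0.06 with vehicle (adjusted p = 0.0099, and 0.050 without vehicle MOV mouse 1) and by 0.20 ± 0.06 with D + Q (adjusted p = 0.0060), and stood at 0.18 and 0.16 with totals alone. The other beta subunits, Psmb1, Psmb2 and Psmb4, lay between -0.07 and 0.11 in both comparisons and none passed the test. With totals alone all of them were called higher in both comparisons, at 0.30 to 0.48.

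Among the 7 tested alpha subunits 1 rose with vehicle, where 30.7% of all genes did, and 2 fell with D + Q, where 30.9% did. Psma5 was at 43.5, 41.3, 43.7, 44.9 and 41.1 CPM in vehicle sham and at 45.7, 53.6, 49.4, 49.1 and 52.2 CPM in vehicle MOV. Every MOV mouse lay above every sham mouse, the log2 fold change was 0.23 ± 0.06 (adjusted p = 0.0065; exact permutation p = 0.0079, the smallest that 5 against 5 mice can give), and it held its sign with totals alone (0.60). With D + Q its log2 fold change was 0.12 ± 0.06 (adjusted p = 0.093). Psma6 did not pass the test with vehicle (-0.10 ± 0.07, adjusted p = 0.26), where mice 2 and 5 of vehicle MOV, at 100 and 97.1 CPM, lay within the sham range of 90.8 to 100 CPM. With D + Q it was at 79.2, 78.6, 79.3, 81.9 and 73.9 CPM in MOV and at 96.3, 92.3, 98.8, 100 and 96.3 CPM in sham, and fell without overlap by 0.26 ± 0.05 (adjusted p = 0.00022), standing at 0.10 with totals alone. Psma2 fell by 0.17 ± 0.06 with D + Q (adjusted p = 0.013) and stood at 0.19 with totals alone.

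In the 19S particle the medians of the 17 subunits were -0.10 with vehicle and -0.14 with D + Q on the TMM scale. In the base 8 of the 9 genes had a negative sign with vehicle and 9 of 9 with D + Q, against 6 and 9 of the 14 core genes. Of all genes 51.0% had a negative sign with vehicle and 48.7% with D + Q. The difference between these classes was not tested. Psmd2, a scaffold subunit of the base and a docking site for ubiquitin-like domains, was at 306, 272, 295, 296 and 277 CPM in vehicle sham and at 241, 295, 237, 215 and 260 CPM in vehicle MOV. All vehicle MOV mice except mouse 2 lay below every sham mouse, and the log2 fold change was -0.21 ± 0.08 (adjusted p = 0.043). In D + Q mice it was at 246, 242, 219, 248 and 240 CPM in MOV and at 294, 292, 307, 346 and 292 CPM in sham, and fell without overlap by 0.32 ± 0.06 (adjusted p = 0.00022). Its partner scaffold Psmd1 fell by 0.21 ± 0.08 with vehicle (adjusted p = 0.034) and by 0.29 ± 0.06 with D + Q (adjusted p = 0.00056). The ATPase Psmc2 fell by 0.19 ± 0.08 (adjusted p = 0.042) and 0.26 ± 0.06 (adjusted p = 0.00096). With library totals alone all of them turned, to 0.17 (Psmd2), 0.17 (Psmd1) and 0.18 (Psmc2) with vehicle and to 0.05, 0.08 and 0.10 with D + Q.

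The vehicle calls of these base genes lay near the threshold and ended in most fits that left out 1 mouse, while those with D + Q held without any 1 mouse. The call of Psmc2 ended in 8 of 10 fits that left out 1 mouse, being kept only without vehicle MOV mouse 2 or 5 (adjusted p 0.052 to 0.14 where lost). The call of Psmd2 also ended in 8 of 10, without vehicle MOV mouse 1, 3, 4 or 5 or vehicle sham mouse 1, 3, 4 or 5 (adjusted p 0.053 to 0.13). That of Psmd1 ended in 7 of 10, without vehicle MOV mouse 1, 3, 4 or 5 or vehicle sham mouse 1, 3 or 5 (adjusted p 0.058 to 0.10). With RLE factors the vehicle calls of Psmc2 and Psmd2 ended too (adjusted p = 0.052 for both). The ATPase Psmc5 was called with D + Q and not with vehicle, and fell by 0.14 ± 0.05 (adjusted p = 0.034), turning to 0.23 with totals alone. Its call ended without D + Q MOV mouse 1, 2, 3 or 5 or D + Q sham mouse 2, 3 or 4 (adjusted p 0.058 to 0.085). Of its exon length, 39.5% overlaps Smarcd2 on the other strand.

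The lid held the largest rise among the members with vehicle. Psmd11, a lid subunit that helps to hold the lid on the core, was at 110, 120, 113, 96.0 and 113 CPM in vehicle sham and at 116, 173, 119, 119 and 197 CPM in vehicle MOV. Only mice 2 and 5 of the MOV group lay above every sham mouse. The log2 fold change was 0.40 ± 0.15 (adjusted p = 0.035). It was 0.28 without vehicle MOV mouse 5 (adjusted p = 0.055), 0.35 without mouse 2 (adjusted p = 0.072) and 0.16 without both (adjusted p = 0.093). The call also ended with no count filter (adjusted p = 0.069) and without vehicle sham mouse 1, 3, 4 or 5 (adjusted p 0.054 to 0.078). In D + Q mice Psmd11 was at 109, 123, 99.6, 113 and 122 CPM in MOV and at 122, 101, 113, 119 and 102 CPM in sham, a log2 fold change of 0.07 ± 0.07 (adjusted p = 0.44).

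Other lid genes were called with D + Q only. Psmd3 fell by 0.24 ± 0.07 (adjusted p = 0.0039), Psmd12 by 0.21 ± 0.06 (adjusted p = 0.0028) and Psmd7, the partner of the lid deubiquitinase, by 0.18 ± 0.06 (adjusted p = 0.010), each with no overlap between MOV and sham. With totals alone these stood at 0.12, 0.15 and 0.19. Psmd13 rose by 0.14 ± 0.06 (adjusted p = 0.030), with 4 of 5 MOV mice above every sham mouse. The call ended without D + Q MOV mouse 5 or D + Q sham mouse 2, 4 or 5 (adjusted p 0.051 to 0.074). Of its exon length, 30.0% overlaps genes on the other strand. Psmd14, the lid deubiquitinase itself, was at 0.12 ± 0.07 with vehicle and 0.08 ± 0.06 with D + Q and was not called, and neither were Psmd6 and Psmd8, which lay between -0.16 and -0.09. With totals alone Psmd14, Psmd6 and Psmd8 were called higher in both comparisons, at 0.21 to 0.50. Of the changes in the base and lid that were called in 1 treatment and not in the other, none differed between treatments at an adjusted p under 0.05 in the interaction test given further on.

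On the TMM scale 2 of the 3 base chaperones rose and 1 fell with vehicle, and 1 rose with D + Q. Of all genes 30.7% rose and 29.8% fell with vehicle, and 34.4% rose with D + Q. None of the 4 core chaperones was called on that scale. With totals alone 2 base and 3 core chaperones were called higher with vehicle, where 52.6% of all genes were. With D + Q these were 3 base and 2 core chaperones, where 56.3% of all genes were called higher. Psmd5, a base chaperone that holds ATPases before they meet the core, was at 20.8, 17.9, 21.2, 17.4 and 19.7 CPM in vehicle sham and at 20.1, 25.4, 23.3, 21.7 and 25.5 CPM in vehicle MOV. Of the MOV mice 4 lay above every sham mouse, and Psmd5 rose by 0.26 ± 0.09 (adjusted p = 0.019, and 0.053 without vehicle sham mouse 4) and by 0.30 ± 0.08 with D + Q (adjusted p = 0.0027). Psmd10, the base chaperone also named gankyrin, was at 7.03, 8.80, 6.69, 7.47 and 6.75 CPM in vehicle sham and at 8.34, 8.90, 9.64, 8.49 and 10.0 CPM in vehicle MOV. It rose by 0.31 ± 0.11 (adjusted p = 0.027), a call that ended without vehicle MOV mouse 5 or vehicle sham mouse 1, 3 or 5 (adjusted p 0.052 to 0.064) or with no count filter (0.054). With D + Q it was at 0.26 ± 0.12 (adjusted p = 0.072). Psmd9, the third base chaperone, was at 17.4, 20.5, 20.1, 18.4 and 18.0 CPM in vehicle sham and at 15.2, 13.7, 14.4, 16.4 and 16.8 CPM in vehicle MOV. It fell without overlap by 0.29 ± 0.09 (adjusted p = 0.0088; 0.055 without vehicle MOV mice 2 and 5), stood at 0.09 with totals alone, and was at 0.01 ± 0.08 with D + Q (adjusted p = 0.89). The core chaperones Psmg1 to Psmg4, at 4.01 to 20.8 CPM, lay between -0.22 and 0.25 on the TMM scale, where none was called in either comparison.

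The activators held both the largest fall and, with D + Q, the largest rise among the members. Psme4 encodes PA200, a large nuclear cap of the core, and lies at 30721725 to 30830376 of chromosome 11 (GRCm39). It was at 321, 255, 304, 302 and 304 CPM in vehicle sham and at 177, 225, 198, 174 and 168 CPM in vehicle MOV. It was at 283, 316, 312, 325 and 306 CPM in D + Q sham and at 198, 202, 160, 217 and 172 CPM in D + Q MOV. Each MOV mouse lay below each sham mouse in both treatments. Psme4 fell by 0.65 ± 0.09 with vehicle (adjusted p = 2.0e-05) and by 0.66 ± 0.08 with D + Q (adjusted p = 6.4e-07), to 0.64 and 0.63 of the sham level. Of the members it was the only one called lower with library totals alone (-0.28 and -0.30). Both calls held without any 1 mouse. Psme3, which encodes the nuclear cap PA28 gamma, was at 59.8, 58.2, 57.3, 54.2 and 59.3 CPM in vehicle sham and at 47.7, 46.6, 43.0, 44.2 and 51.1 CPM in vehicle MOV. It fell without overlap by 0.31 ± 0.06 (adjusted p = 0.00071) and with D + Q by 0.36 ± 0.07 (adjusted p = 0.00010), and stood at 0.07 and 0.00 with totals alone. Both calls held without any 1 mouse.

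Psme1 and Psme2 encode the partner chains of PA28, the interferon-inducible cap, and lie next to each other on chromosome 14 (55815190 to 55822034 and 55824895 to 55829173, GRCm39). Psme2 was at 17.0, 16.0, 14.7, 22.2 and 20.1 CPM in vehicle sham and at 19.4, 20.6, 22.5, 29.2 and 23.2 CPM in vehicle MOV, with 3 of 5 MOV mice above every sham mouse. It rose by 0.36 ± 0.13 (adjusted p = 0.025), a call that ended without vehicle MOV mouse 4 or vehicle sham mouse 1, 2 or 3 (adjusted p 0.053 to 0.066), and with D + Q by 0.45 ± 0.09 (adjusted p = 0.00026). Psme1 was at 29.9, 24.6, 30.5, 30.0 and 30.8 CPM in vehicle sham and at 26.0, 22.1, 23.3, 29.4 and 24.8 CPM in vehicle MOV, a log2 fold change of -0.21 ± 0.09 (adjusted p = 0.060). With D + Q it fell without overlap by 0.17 ± 0.06 (adjusted p = 0.030), standing at 0.20 with totals alone. The call ended without D + Q MOV mouse 1, 4 or 5 or D + Q sham mouse 4 (adjusted p 0.061 to 0.093). Exon overlaps with Emc9 (39.6% of Psme1) and Rnf31 (30.8% of Psme2) and a near copy of Psme2, Psme2b, at 0 to 0.89 CPM, leave the counts of this pair uncertain. The inhibitor gene Psmf1 was at -0.14 ± 0.09 with vehicle and -0.06 ± 0.09 with D + Q and was not called. With totals alone Psmf1 was called higher in both, at 0.23 and 0.31.

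**Figure D3:**
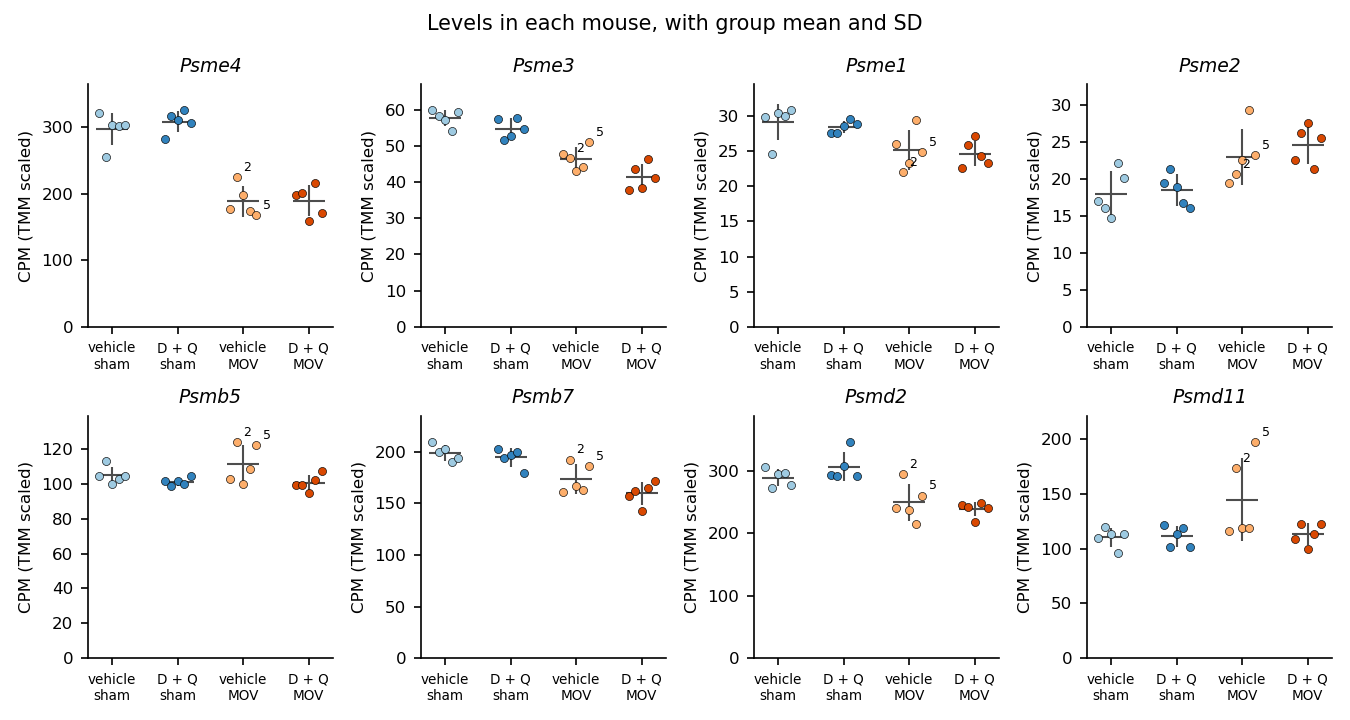
Levels of the 4 activators and of Psmb5, Psmb7, Psmd2 and Psmd11 in each of the 20 mice (CPM, TMM scaled, axes from 0), with the mean and SD of each group and with vehicle MOV mice 2 and 5 numbered. Psme4 separates MOV from sham in both treatments (at most 225 against at least 255 CPM), Psme2 is shifted the other way with overlap, and in Psmd11 mice 2 and 5 stand at 173 and 197 CPM above the other 18. On the scale of library totals alone the falls of Psme3, Psme1, Psmb7 and Psmd2 turn.

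D + Q against vehicle within MOV gave no call among the members. By edgeR's quasi-likelihood test 0 of 43 members passed an adjusted p under 0.05, where 0% of all 15238 genes did, and DESeq2 and limma-voom also called 0 members. Over all genes DESeq2 called 4 higher and 4 lower here. The study, with DESeq2 at the same threshold, reported far more genes for this comparison. The reason for this gap was not tested. At an unadjusted p under 0.05, 6 members were lower in D + Q, where 4.61% of all genes were, and 0 were higher, where 4.19% were. DESeq2 gave 9 lower at that level and limma-voom 7, for which the shares of all genes are not given here. Of the 43 members 41 had a negative sign, among them all 14 core and all 17 regulatory particle subunits, with a median of -0.13 beside 0.00 for all genes, of which 49.5% were negative. These genes were read in the same 10 mice and are not independent of each other. Fibroblast markers had the opposite sign, with 5 of 5 positive, 4 of them at an unadjusted p under 0.05, a median of 0.42, and sums of 8069 to 11048 CPM in D + Q MOV beside 4444 to 8964 CPM in vehicle MOV. Of the macrophage markers 6 of 7 were positive, with a median of 0.28 and sums of 241 to 296 CPM beside 109 to 321 CPM. In sham muscle too, 5 of 5 fibroblast markers were positive with D + Q against vehicle (median 0.55). There 4 of them had an unadjusted p under 0.05, where 5.39% of all genes were higher at that level. Of the macrophage markers 6 of 7 were positive in sham (median 0.18). No marker of either list passed an adjusted p under 0.05, and their part in the result was not tested.

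The 6 members were Psma2, Psma6, Psmc5, Psmd3, Psmd11 and Psme3, with log2 fold changes of -0.13, -0.20, -0.17, -0.20, -0.37 and -0.18 and adjusted p-values from 0.52 to 0.56. Psma6 was at 79.2, 78.6, 79.3, 81.9 and 73.9 CPM in D + Q MOV and at 81.9, 100, 81.3, 86.9 and 97.1 CPM in vehicle MOV, with 4 of 5 D + Q mice below every vehicle mouse. Psmd11 was at 109, 123, 99.6, 113 and 122 CPM in D + Q MOV beside 116, 173, 119, 119 and 197 CPM in vehicle MOV, and its exact permutation p was 0.13. For Psmb5 the log2 fold change was -0.16 ± 0.08, with an interval from -0.33 to 0.00, and for Psme4 it was -0.01 ± 0.10, with an interval from -0.23 to 0.21.

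Within the vehicle MOV group mice 2 and 5 stood apart in these genes. Over the 43 members the mean log2 CPM was 5.92, 6.10, 5.92, 5.93 and 6.07 in the 5 vehicle MOV mice and 5.86, 5.92, 5.83, 5.91 and 5.91 in the D + Q MOV mice. Mouse 2 held the highest value of its group in 25 members and mouse 5 in 12, and in 26 of 43 they were the top pair. Without both, a choice made after their values were seen, 34 of the 41 members kept a negative sign, the median was -0.05 and 0 passed an unadjusted p under 0.05. Mouse 2 also had the lowest sums in its group of fibroblast markers (4444 CPM, others 6690 to 8964) and of macrophage markers (109 CPM, others 194 to 321), while mouse 5 lay within the others (7423 and 217 CPM). Mice 2 and 5 had the highest sums of myofibre markers (122855 and 113911 CPM, others 88640 to 109322). In mouse 2 the myofibre markers differed in rank. Its Myh1 (31042 CPM, others 11974 to 21208) and Ckm (13830 CPM, others 11285 to 13031) were the highest of the group. Its Myh4 was the lowest (17268 CPM, others 18936 to 21696). The part of these marker levels in the result was not tested.

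**Figure D4:**
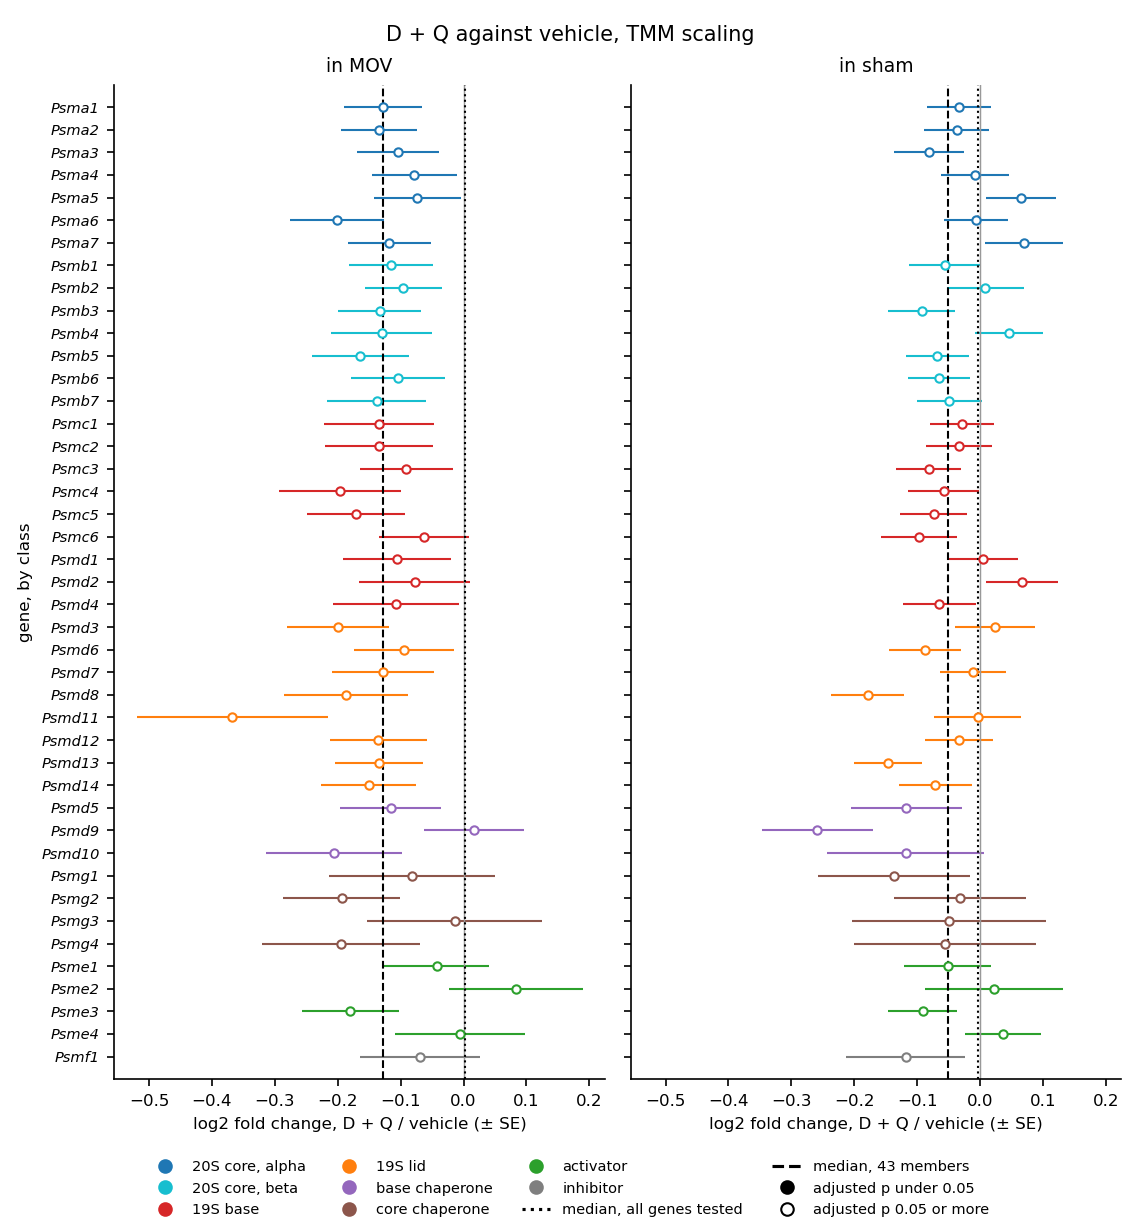
Log2 fold change of D + Q against vehicle for the 43 tested members in MOV (left) and in sham (right), with SE bars from edgeR on 10 mice a panel and lines at the medians of all genes (dotted) and of the members (dashed). No point is filled, since none passed an adjusted p of 0.05, and 41 of 43 points in MOV and 34 of 43 in sham lie below 0.

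**Figure D5:**
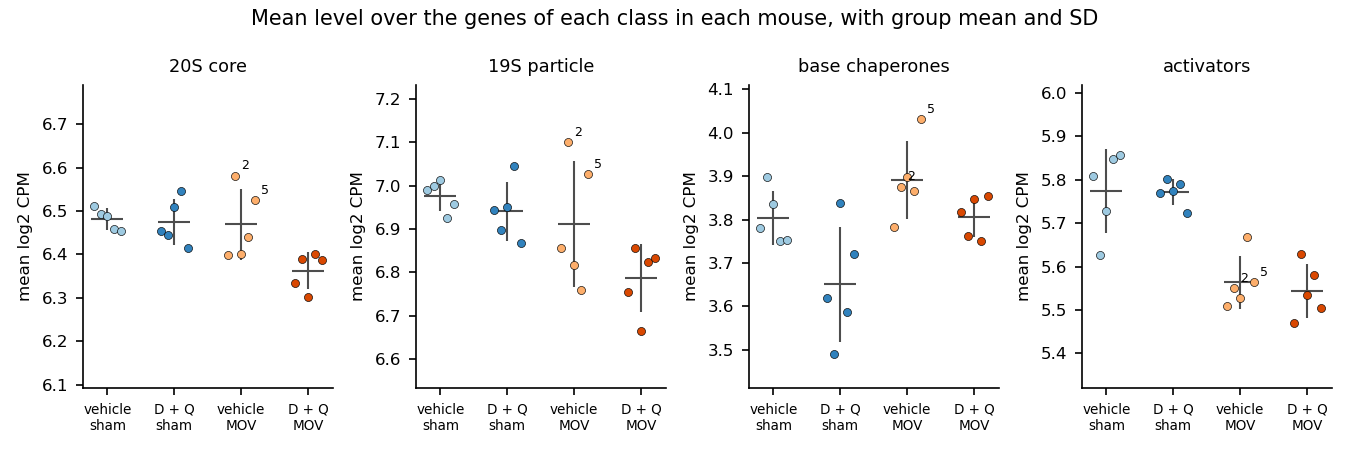
Mean log2 CPM over the tested genes of the 20S core, the 19S particle, the base chaperones and the activators in each mouse, with the mean and SD of each group and vehicle MOV mice 2 and 5 numbered. In the core panel vehicle MOV mice 2 and 5 stand at 6.58 and 6.53 and the other 3 at 6.40 to 6.44, and in the activator panel, on the TMM scale, D + Q MOV lies wholly below D + Q sham while 1 vehicle MOV mouse lies above the lowest vehicle sham mouse.

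Within sham muscle D + Q gave no call among the members either. By edgeR's quasi-likelihood test 0 of 43 passed an adjusted p under 0.05, where 0.215% of all 13926 genes did, and DESeq2 and limma-voom called 0. At an unadjusted p under 0.05, 3 members were lower, where 4.8% of all genes were, and 0 were higher, where 5.39% were. The sign was negative in 34 of 43, with a median of -0.05 beside -0.004 for all genes, of which 51.4% were negative. The 3 were Psmd8, a lid subunit (-0.18 ± 0.06, adjusted p = 0.28), Psmd13, a lid subunit (-0.15 ± 0.05, adjusted p = 0.35), and the chaperone Psmd9 (-0.26 ± 0.09, adjusted p = 0.31). Psmd13 was at 65.8, 64.3, 66.6, 61.0 and 62.9 CPM in D + Q sham and at 67.8, 75.3, 70.9, 67.8 and 69.2 CPM in vehicle sham, with no overlap. Psmd9 was at 14.5, 14.0, 18.3, 16.1 and 16.6 CPM in D + Q sham and at 17.4, 20.5, 20.1, 18.4 and 18.0 CPM in vehicle sham, and Psmd8 at 195, 174, 192, 203 and 172 CPM and at 213, 199, 216, 220 and 199 CPM. In both, 4 of 5 D + Q mice lay below every vehicle mouse. All 7 chaperones had a negative sign in sham, between -0.26 and -0.03, where 51.4% of all genes were negative.

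The interaction asks whether the response to MOV differed with treatment. In the fit of all 20 mice 0 of 43 members passed an adjusted p under 0.05 by edgeR's quasi-likelihood test, where 0.0127% of all 15700 genes did, and DESeq2 and limma-voom called 0. At an unadjusted p under 0.05, 4 members had a lower MOV response with D + Q (Psma6, Psma7, Psmd3 and Psmd11, at -0.20, -0.19, -0.23 and -0.37), where 3.17% of all genes did. In 1 there was a higher response, the chaperone Psmd9 at 0.27 ± 0.12, where 2.54% did. Their adjusted p-values were 0.81 to 0.86. The alpha subunit Psma7, not called in any comparison on the TMM scale, was at 84.0, 95.4, 80.8, 86.7 and 84.8 CPM in vehicle MOV and at 75.3, 80.5, 79.4, 81.7 and 84.8 CPM in D + Q MOV, with the highest value in vehicle MOV mouse 2. With library totals alone Psma7 was called higher after MOV, at 0.51 with vehicle and 0.34 with D + Q. Without vehicle MOV mice 2 and 5, 0 members had a lower response at that level and 1 a higher one, and the median over the members went from -0.09 to -0.01. For Psme4 the interaction was -0.05 ± 0.12, with an interval from -0.30 to 0.21.

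Genes around the proteasome were read from lists chosen with the members, beside 30.7% of all genes rising and 29.8% falling with vehicle and 34.4% and 30.9% with D + Q (52.6% and 9.95%, and 56.3% and 11.1%, with library totals alone). Of the 3 immunoproteasome catalytic genes, which replace Psmb5, Psmb6 and Psmb7 in immune cells and under interferon, 2 rose after MOV with vehicle and 3 with D + Q. Psmb8 rose by 0.78 ± 0.27 with vehicle (adjusted p = 0.026) and 1.33 ± 0.23 with D + Q (adjusted p = 0.00021). Psmb9 rose by 0.77 ± 0.31 with vehicle (adjusted p = 0.046) and 2.83-fold with D + Q (adjusted p = 0.00019), and Psmb10 was at 0.23 ± 0.12 with vehicle (adjusted p = 0.092) and rose by 0.53 ± 0.12 with D + Q (adjusted p = 0.00080). They stayed the minor form per length of transcript. Psmb8 made up 4.42% ± 1.19 of the sum of Psmb8 and Psmb5 in vehicle sham, 7.01% ± 2.91 in vehicle MOV, 3.83% ± 1.05 in D + Q sham and 8.89% ± 2.63 in D + Q MOV (SD, n = 5). Of 9 other proteasome-associated genes with counts, 2 rose (22.2%) and 3 fell (33.3%) with vehicle and 1 rose (11.1%) and 6 fell (66.7%) with D + Q on the TMM scale. With library totals alone the counts were 7 higher and 0 lower with vehicle and 4 higher and 1 lower with D + Q. The core maturation protein gene Pomp rose by 0.31 ± 0.09 (adjusted p = 0.0070). Ecpas, a proteasome scaffold, fell by 0.51 ± 0.09 (adjusted p = 0.00027; -0.13 with totals alone) and Ube3c, a proteasome-bound ubiquitin ligase, by 0.45 ± 0.08 (adjusted p = 0.00012; -0.08 with totals alone).

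Of 15 genes of NFE2L1, its processing and the promoter factors, 3 rose (20.0%) and 7 fell (46.7%) with vehicle and 2 rose (13.3%) and 8 fell (53.3%) with D + Q. With library totals alone these became 8 higher and 2 lower in both comparisons. Nfe2l1 itself, at 757 to 1342 CPM in all mice, was at -0.19 ± 0.12 (adjusted p = 0.19) and -0.13 ± 0.08 (adjusted p = 0.16). With totals alone Nfe2l1 turned to 0.18 with vehicle (adjusted p = 0.14) and to 0.23 with D + Q, where it was called higher (adjusted p = 0.0053). Ddi2, the protease that cleaves the NFE2L1 protein, fell by 0.65 ± 0.09 with vehicle (adjusted p = 1.3e-05) and 0.60 ± 0.06 with D + Q (adjusted p = 1.3e-07). The NF-Y subunit genes moved in different directions with vehicle, Nfya rising by 0.91 ± 0.14 (adjusted p = 4.9e-05) and Nfyb falling by 0.83 ± 0.08 (adjusted p = 4.9e-07). Of 11 ubiquitin and shuttle genes, 1 rose (9.09%) and 8 fell (72.7%) with vehicle and 1 rose (9.09%) and 9 fell (81.8%) with D + Q (with library totals alone 5 and 4 rose and 1 and 3 fell). Among those that fell with vehicle were the ubiquitin gene Ubb (-0.33 ± 0.07, adjusted p = 0.00068, and 0.04 with totals alone) and the shuttle gene Ubqln4 (-0.52 ± 0.08, adjusted p = 5.0e-05; -0.15 with totals alone). The fused ubiquitin gene Rps27a rose by 0.33 ± 0.07 (adjusted p = 0.00073). Both ubiquitin ligase genes known from muscle atrophy fell with vehicle, Fbxo32 by 1.14 ± 0.18 (adjusted p = 0.00020, and -0.77 with totals alone) and Trim63 by 0.36 ± 0.07 (adjusted p = 0.00064), which turned to 0.02 with totals alone.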

How the data were processed

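RNA from plantaris muscle of 20 mice, 5 in each of 4 groups, was sequenced. The authors aligned reads with STAR 2.7.8a to GRCm39, per the submitters' processing notes, and deposited expected counts per gene from Partek's expectation-maximization quantifier without normalization. The sums of the deposited estimated counts were at least 10 in each of the 22660 rows, 0 columns were unused, and 29.8% of the values were not whole. Whether the library kit or the counting kept strand is not given in the sources used here.

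Counts were rounded and scaled with TMM. Each comparison was fitted with edgeR 4.0.16 (R 4.3.3) by the quasi-likelihood test on the 10 mice concerned. The interaction was fitted on all 20 mice. Genes entered with 10 or more counts in 5 or more mice, with Benjamini-Hochberg adjustment over all genes tested. The study used DESeq2, which is an alternative here (1.42.0). Adjusted p-values and SE are from edgeR. Single genes were also compared by two-sided exact permutation tests over the 252 divisions of 10 mice. CPM are from all 20 mice scaled together. The script was tested on simulated data. No pair of libraries in a group agreed within sampling noise (variance ratio at least 6.53). Total counts lay between 17887495 and 26234505 per mouse.

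The members and lists were chosen with earlier results of these data known. Named members are the catalytic genes, the 3 largest changes per class among those called between MOV and sham, all that fell there, all at an unadjusted p under 0.05 in the other comparisons, and the extremes of level. Psmd13 and some of the uncalled members were also described in the MOV comparisons, while other uncalled members enter only through counts and medians. Annotation is GENCODE on GRCm39, and promoters are from a RefSeq table on GRCm38.p6, with coordinates of each build kept apart. The alternatives were DESeq2, RLE factors, library totals alone, other count minimums, limma-voom (3.58.1), the replicate block, all 20 mice in one fit and each mouse left out in turn, with vehicle MOV mice 2 and 5 left out together added after their values were seen. Same-numbered mice did not deviate together (correlations of their deviations -0.15 to 0.19).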

Additional observations from a re-analysis of the deposited data

Results flagged for a closer look

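Of 104 sets of 5 mice checked among the named members, 7 held a mouse far from the other 4 by Dixon's test at 95%, where chance alone flags about 1 in 20. In D + Q sham, Psmc2 was at 127 CPM in mouse 4 (others 112 to 116) and Psmd5 at 21.5 CPM in mouse 3 (others 16.5 to 17.7). In D + Q MOV, Psmd2 was at 219 CPM in mouse 3 (others 240 to 248), Psmd8 at 138 CPM in mouse 3 (others 169 to 178) and Psmd5 at 23.0 CPM in mouse 2 (others 21.2 to 21.4). In vehicle sham, Psme1 was at 24.6 CPM in mouse 2 (others 29.9 to 30.8) and Psme4 at 255 CPM in the same mouse (others 302 to 321). The calls of Psmc2, Psmd2 and Psmd5 with D + Q and of Psme4 with vehicle held without the mouse in question.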

How the results depend on the processing

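The scale decided the direction of most falls. With library totals alone, MOV against sham gave 38 members higher and 1 lower with vehicle (5 and 8 on the TMM scale) and 33 and 1 with D + Q (3 and 15). The sign turned in 26 of 43 members with vehicle and 28 with D + Q. Those among them called on the TMM scale were, with vehicle, Psmb3 (0.18), Psmb7 (0.19), Psmc2 (0.18), Psmd1 (0.17), Psmd2 (0.17), Psmd9 (0.087) and Psme3 (0.069), and with D + Q, Psma2 (0.19), Psma6 (0.10), Psmb3 (0.16), Psmb6 (0.21), Psmb7 (0.12), Psmc2 (0.10), Psmc5 (0.23), Psmd1 (0.078), Psmd2 (0.045), Psmd3 (0.12), Psmd7 (0.19), Psmd12 (0.15), Psme1 (0.20) and Psme3 (0.00024). With vehicle, no count filter gave 3 higher, a minimum of 50 counts 9 higher and 4 lower, and leaving out vehicle MOV mice 2 and 5 gave 2 higher, while leaving out 1 mouse gave 2 to 5 higher and 3 to 10 lower. With D + Q the minimum of 50 counts gave 5 higher, and leaving out 1 mouse gave 2 to 4 higher and 13 to 15 lower. DESeq2, RLE factors, limma-voom and all 20 mice in one fit kept these counts within 1.5 times. With the replicate block there were 5 higher and 7 lower with vehicle, 2 higher and 14 lower with D + Q and 0 in the D + Q against vehicle and interaction tests; the numbers do not pair the mice. No setting called a member in those tests. Over the named members 765 values kept direction and side of the threshold, 75 kept direction only and 21 turned. Apart from the stated alternatives the cause of a lost call was not tested.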
